A study of Mus musculus with 8 samples.

Results

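Transcripts of 10 transcription factor genes that mark and shape mesenchymal cells were examined in mouse embryonic fibroblasts (MEFs) lacking Lats2: the bHLH genes Twist1, Twist2, Hand1, Hand2 and Tcf21, the Snail genes Snai1 and Snai2, and the GATA genes Gata2, Gata4 and Gata6. Their probes were found by the gene name that the array files give to each gene probe. The list of genes itself was chosen with earlier results of these data known. All 10 genes were on the array, out of 27745 gene names, with 15 of its 41174 gene probes. MEFs are fibroblast cultures started from embryos, here grown in DMEM with serum. RNA was compared between Lats2-/- and Lats2+/+ MEFs of 3 litters, numbered 112, 116 and 121, with 1 extract of each genotype per litter and 6 extracts in all. The labelled strain is C57BL/6J for both genotypes, no treatment was applied, and embryo age is not given in the labels. Each extract is 1 MEF clone, so that 1 clone stands for a genotype in a litter.

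Lats2 encodes a kinase of the Hippo pathway, which restrains the coactivators YAP and TAZ. Twist and Snail factors are best known for epithelial-mesenchymal transition (EMT), in which Snail proteins repress epithelial genes such as Cdh1 and Twist proteins act as dimers with the widely expressed E proteins. Hand1, Hand2, Tcf21, Gata4 and Gata6 act in the heart and the mesenchyme of inner organs, and Gata2 is best known in blood progenitors. Many such developmental regulators have promoters rich in CpG and are known targets of Polycomb repressive complex 2 (PRC2), the histone H3 lysine 27 methyltransferase that the study addressed.

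Of the 10 genes, 6 had a probe well above background in at least 1 extract, namely Twist1, Twist2, Snai1, Snai2, Gata2 and Gata6. Hand1, Hand2, Tcf21 and Gata4 had none. The filter kept 7 of the 15 probes, 2 of them for Gata2, among 22642 kept probes in all. A kept probe had to be detected in 2 or more of the 3 extracts of 1 genotype, so that a gene seen in 1 extract alone did not pass. No kept member probe passed the adjusted threshold for genotype. A group of 4 detected genes, Twist1, Twist2, Snai1 and Gata2, were at least 2-fold lower in the Lats2-/- cells of litter 121, as 2.70% of all kept probes were, and in no other litter.

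The promoters of 6 of the 10 genes are in the RefSeq windows at hand (GRCm38.p6, 250 bases before to 50 after the start), and 4 are shown because they contrast the genes that were lowest together in litter 121 with a gene that was not detected. They are Twist1 (chr12:33957421-33957720, plus strand), Twist2 (chr1:91801211-91801510, plus strand), Snai1 (chr2:167537945-167538244, plus strand) and Tcf21 (chr10:22820094-22820393, minus strand). Capitals mark CpG dinucleotides.
Twist1: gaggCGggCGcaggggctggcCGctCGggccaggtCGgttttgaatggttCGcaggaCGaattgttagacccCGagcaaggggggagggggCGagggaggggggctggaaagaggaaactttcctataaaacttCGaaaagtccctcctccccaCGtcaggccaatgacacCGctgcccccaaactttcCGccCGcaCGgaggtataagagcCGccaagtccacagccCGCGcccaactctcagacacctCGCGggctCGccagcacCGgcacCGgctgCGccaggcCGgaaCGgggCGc
Twist2: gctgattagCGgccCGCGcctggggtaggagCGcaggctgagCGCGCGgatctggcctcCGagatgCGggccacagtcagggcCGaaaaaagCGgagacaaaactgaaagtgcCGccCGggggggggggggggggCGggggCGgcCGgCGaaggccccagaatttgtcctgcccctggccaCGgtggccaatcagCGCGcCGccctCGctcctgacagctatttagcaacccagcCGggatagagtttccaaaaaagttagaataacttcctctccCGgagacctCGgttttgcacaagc
Snai1: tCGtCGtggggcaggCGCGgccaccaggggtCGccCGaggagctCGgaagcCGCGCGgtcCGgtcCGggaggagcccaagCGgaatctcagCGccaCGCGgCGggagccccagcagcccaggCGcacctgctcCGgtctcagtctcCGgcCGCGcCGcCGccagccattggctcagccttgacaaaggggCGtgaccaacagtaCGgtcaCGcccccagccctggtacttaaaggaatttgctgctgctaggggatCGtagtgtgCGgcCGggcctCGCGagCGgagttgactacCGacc
Tcf21: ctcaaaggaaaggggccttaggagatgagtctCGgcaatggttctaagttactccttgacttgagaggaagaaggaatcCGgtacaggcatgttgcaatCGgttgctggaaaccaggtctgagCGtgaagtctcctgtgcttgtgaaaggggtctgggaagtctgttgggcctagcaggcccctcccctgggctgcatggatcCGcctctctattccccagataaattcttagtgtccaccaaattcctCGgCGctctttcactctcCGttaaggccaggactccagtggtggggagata

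The Twist1 window held 27 CpG, that of Twist2 25 and that of Snai1 34. The median over 32851 promoter windows was 7, and 18.4% held 25 or more. Both Gata2 windows were as dense, with 32 and 29 CpG, whereas Hand2 had 17 and Tcf21 8. The detected genes with a window thus had denser promoters than the undetected ones, over 6 genes and with no test. The E-box CANNTG (same letters on either strand), the motif that bHLH and Snail factors bind, occurred in none of the windows of Twist1, Twist2 and Tcf21. It occurred once in that of Snai1, at base 125, once in 1 Gata2 window and at 2 places in Hand2, and 72.3% of all windows held it. The GATA motif GATAA (either strand) was in the windows of Hand2, with 2 matches, and Tcf21, with 1, and in 25.4% of all windows. The motif GGAATG (either strand), bound by the TEAD partners of YAP, was in 1 Gata2 window and in 14.7% of all windows. Promoters of Hand1, Snai2, Gata4 and Gata6 were not analysed here.

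The arrays were Agilent 2-colour arrays that held both extracts of a litter, with dyes swapped between arrays, 2 arrays each for litters 112 and 116 and 4 for litter 121. The share of gene probes detected per array was 53.7% to 60.6% for Lats2-/- and 53.1% to 61.6% for Lats2+/+. Litters 112 and 116 lay on 1 slide and litter 121 alone on the other, so slide and litter 121 cannot be told apart. Of the 4 Lats2 probes, the upstream one (chromosome 14, 56676512 to 56676571, mm8) had log2 ratios of Lats2-/- over Lats2+/+ of -1.33, -1.05 and -0.56 in litters 112, 116 and 121. The other 3 were between 0.80 and 1.17 in litter 121, higher in the extract labelled Lats2-/-. Which part of Lats2 the deletion removes is not given in the sources used here. The study presents its MEFs as knockouts on the basis of western blotting, which was not analysed here. For the 6 detected members, means without litter 121 are given beside the others.

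Twist1, a bHLH repressor of myogenic and epithelial programmes in mesoderm, has 1 probe (chromosome 12, 34544793 to 34544852, mm8). Its log2 signals in the Lats2-/- extracts were 10.36, 10.44 and 7.91 in litters 112, 116 and 121, and in the Lats2+/+ extracts 9.91, 10.39 and 10.65. The Lats2-/- extract of litter 121 lay alone, 2.0 below the lowest of the other 5 extracts, which were within a narrow band. Signals are set across litters after scaling between arrays, and those of litter 121 come from another slide. Because the arrays measure RNA of a whole culture, fewer cells expressing a gene and less RNA per cell cannot be told apart here. The log2 ratios by litter were 0.45, 0.05 and -2.74, the last of which is 6.69-fold lower. On the 4 arrays of litter 121 the ratio ran from -2.79 to -2.67, so the dye orientation made little difference. The mean was -0.75 ± 1.74 (SD, n = 3 litters), with a 95% interval of -2.82 to 1.32 and an adjusted p of 0.841 in limma. Without litter 121 the mean was 0.25, on the other side of 0.

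Twist2 (Dermo1), the paralog known from dermis and bone precursors, has 1 probe (chromosome 1, 93678348 to 93678406, mm8) and varied most among the 10 genes. Its log2 signals were 11.54, 12.95 and 6.17 for Lats2-/- in litters 112, 116 and 121, and 11.43, 10.98 and 9.17 in the Lats2+/+ extracts. The highest and the lowest of the 6 extracts were both Lats2-/-, and the Lats2+/+ extracts alone spanned 2.27. In the Lats2-/- extract of litter 121 the probe was not well above background on any of 4 arrays, whereas it was on all 4 in the Lats2+/+ extract of that litter. Lats2-/- was therefore at least 7.86-fold lower there, a bound set by the lowest signal well above background on each array. In litter 116 Lats2-/- was 3.92-fold higher, with a log2 ratio of 1.97, and in litter 112 the ratio was 0.10. The mean over the litters was -0.31 ± 2.51 (SD, n = 3), with a 95% interval of -3.28 to 2.66 and an adjusted p of 0.964 in limma. Without litter 121 it was 1.04. The background correction used here adds an offset of 50 that damps ratios of dim spots. The processed signals of the scanner software, which carry no such offset and were not loess normalized here, gave a mean of -1.57.

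**Figure D1:**
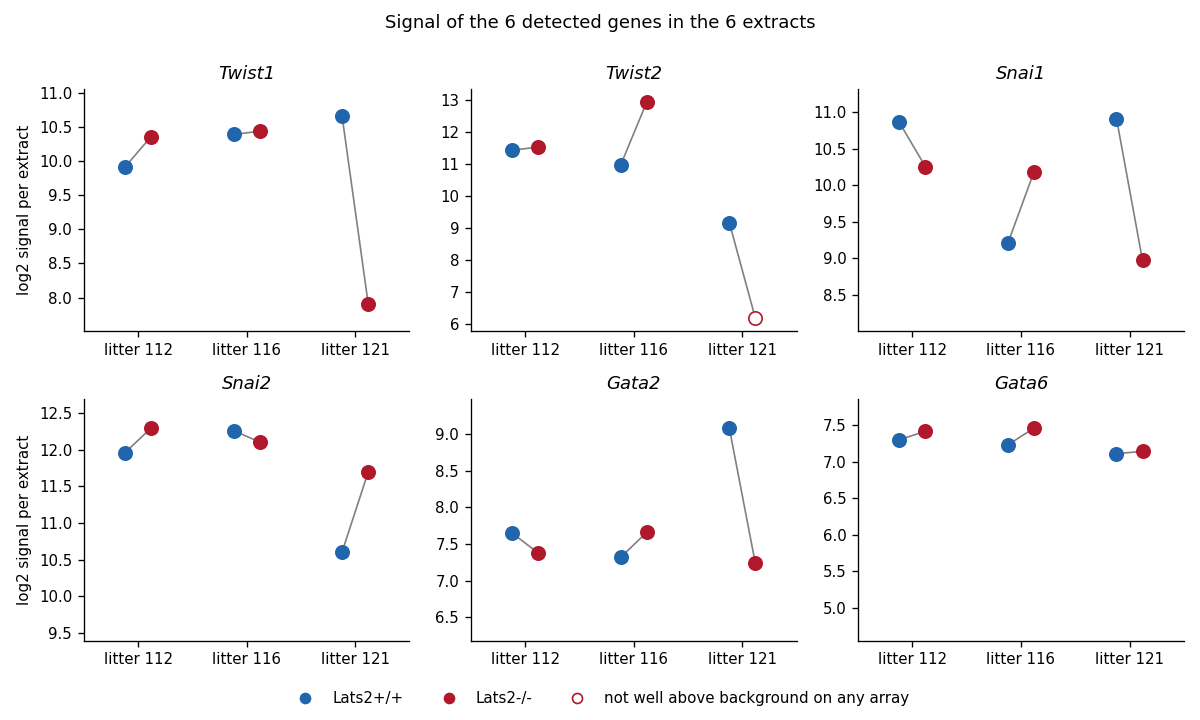
Log2 signal (vertical axis, each panel on its own scale) of the 6 detected genes in the Lats2+/+ (blue) and Lats2-/- (red) extracts of litters 112, 116 and 121, with a line joining littermates. Twist1 and Twist2 are lowest in the Lats2-/- extract of litter 121, where the open circle marks Twist2 as not well above background, whereas for Gata2 and Snai2 the Lats2+/+ extract of that litter stands apart.

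Snai1, the Snail repressor of Cdh1, has 1 probe (chromosome 2, 167233778 to 167233837, mm8). Log2 signals were 10.25, 10.18 and 8.97 for Lats2-/- in litters 112, 116 and 121, and 10.86, 9.21 and 10.91 in the Lats2+/+ extracts. The lowest Lats2-/- extract and the lowest Lats2+/+ extract came from different litters and lay 0.24 apart, and the genotypes overlapped. The ratio changed sign between litters, at -0.60, 0.97 and -1.94, the last being 3.83-fold lower. The mean was -0.52 ± 1.46 (SD, n = 3 litters; 95% interval -2.26 to 1.22, adjusted p of 0.871 in limma), and 0.18 without litter 121. The Lats2+/+ extracts differed among litters by up to 1.70, more than the 1.28 among the Lats2-/- extracts.

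Snai2 (Slug), the Snail factor of neural crest and fibroblasts, has 1 probe (chromosome 16, 14622846 to 14622905, mm8) and went the other way from Snai1 in each litter. Its log2 signals were 12.29, 12.10 and 11.69 in the Lats2-/- extracts and 11.96, 12.26 and 10.61 in the Lats2+/+ extracts of litters 112, 116 and 121. The extract that stood apart was Lats2+/+ of litter 121, 1.09 below the rest, and the Lats2-/- extracts lay within 0.60. The ratios were 0.34, -0.16 and 1.09, so that Lats2-/- was 2.13-fold higher in litter 121. Its mean of 0.42 ± 0.63 (SD, n = 3 litters; 95% interval -0.36 to 1.21) had the smallest adjusted p of the member probes, 0.773 in limma, with an unadjusted p of 0.207. The mean without litter 121 was 0.09.

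**Figure D2:**
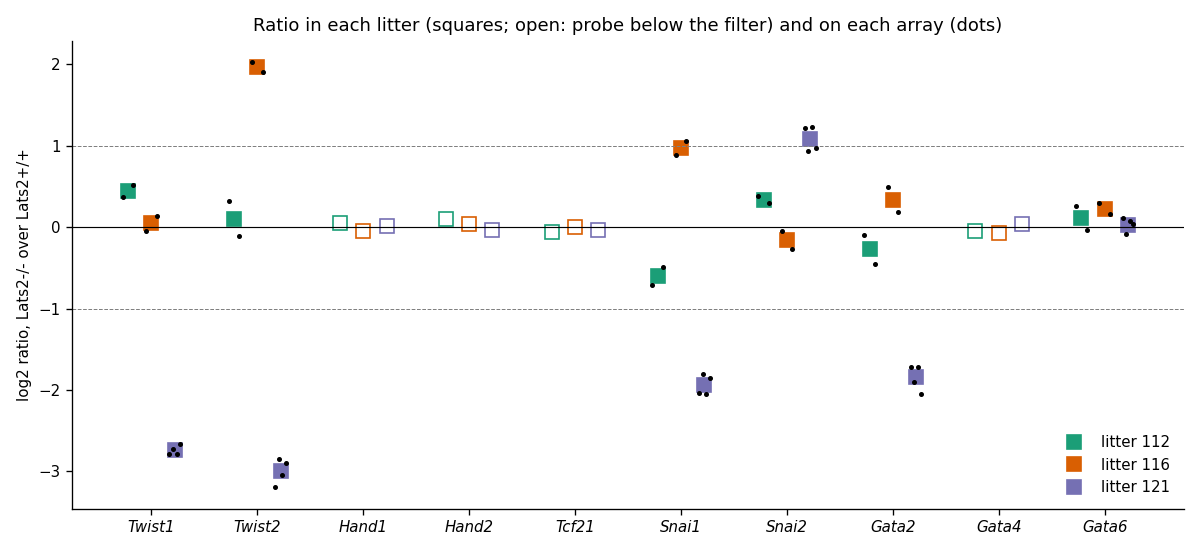
Log2 ratio of Lats2-/- over Lats2+/+ for the 10 genes, 1 probe per gene, as the mean of each litter (squares, open where the probe did not pass the filter) and, for kept probes, on each array (black dots). Dashed lines mark 2-fold. Twist1, Twist2, Snai1 and Gata2 lie below the lower line in litter 121, while Hand1, Hand2, Tcf21 and Gata4 lie at 0 with no probe above background.

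Gata2 has 2 probes on chromosome 6 (88172482 to 88172541 and 88172009 to 88172068, mm8) that went together in every litter. The brighter one gave log2 signals of 7.38, 7.66 and 7.24 for Lats2-/- in litters 112, 116 and 121, and 7.65, 7.32 and 9.08 in the Lats2+/+ extracts. The other 5 extracts were within a narrow range, with the Lats2+/+ extract of litter 121 standing 1.42 above them. The 3.60-fold lower signal of Lats2-/- in litter 121 thus went with a high Lats2+/+ extract, unlike Twist1, although the Lats2-/- extract of that litter was also the lowest. Levels of litter 121 are set against another slide here, so the difference cannot be placed in 1 extract. The ratios were -0.27, 0.34 and -1.85 for this probe and -0.30, 0.37 and -1.58 for the other. The mean was -0.59 ± 1.13 (SD, n = 3 litters; 95% interval -1.95 to 0.76, adjusted p of 0.808 in limma), and 0.03 without litter 121.

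Gata6, a GATA factor of endoderm, heart and visceral mesenchyme, has 3 probes on chromosome 18, and they did not give the same picture. The first along the chromosome was well above background in all 6 extracts and level, with ratios of 0.11, 0.23 and 0.03 in litters 112, 116 and 121. It was the only one of the 7 kept member probes with 1 sign in all 3 litters, a pattern that 29.7% of kept probes had. Its mean was 0.13 ± 0.10 (SD, n = 3 litters; 95% interval -0.17 to 0.42, adjusted p of 0.811 in limma), and 0.17 without litter 121. The last probe, 30505 bases further downstream, was well above background in 1 extract alone, Lats2-/- of litter 116. There its log2 signal was 7.75, against 6.06 to 6.22 in the other 5 extracts, and Lats2-/- was at least 2.89-fold higher than Lats2+/+. The middle probe, 9977 bases from the first, was also well above background in that extract, at least 1.40-fold higher. Both of these probes were left out by the filter, and in the fit without it their adjusted p was 0.915 and 0.918 in limma. Which Gata6 transcripts each probe sees was not analysed here.

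The 4 undetected genes were at background in both genotypes. Hand1, a bHLH factor of heart and extraembryonic mesoderm, had log2 signals of 5.89 to 6.06 and was above background on no array. Tcf21 (capsulin), a marker of visceral and cardiac fibroblast precursors, lay between 6.00 and 6.21 and was likewise above background on no array. The brighter Hand2 probe was between 6.08 and 6.32. It was well above background on 2 of 4 arrays for Lats2-/- of litter 121, and on 1 of 2 for each extract of litter 116, which is no majority of arrays in any extract. Of the 2 Gata4 probes, 1 was above background on a single array, for Lats2-/- of litter 121, and the other, averaged over 10 spots, on none. Ratios of all 6 probes of these genes were between -0.07 and 0.12 in every litter, which at this signal says only that no level was measured.

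Over the 7 kept member probes, 0 passed an adjusted p of 0.05 in limma, where 0.00% of all kept probes did. At an unadjusted p under 0.05 limma called 0 of the 7, against 6.84% of kept probes, and so did the methods' t-test on the same 3 values per probe, against 5.95%. With the 2-fold size that the study asked for added to that p, the count was 0 in limma, against 0.835%, and 0 by the methods' t-test, against 0.314%. Over the 7 probes the mean ratio had a median of -0.50, and over all kept probes 0.01. That median counts both Gata2 probes and depends on litter 121, without which every detected gene had a mean above 0. With 1 extract per genotype in each of 3 litters, these tests measure the spread between litters, and every interval above holds both directions.

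The pairs of clones from the 3 litters were far apart. In litter 121, 5 of the 7 member probes, of 4 genes, were at least 2-fold lower in Lats2-/-, against 2.70% of kept probes, and 1, Snai2, was at least 2-fold higher, against 3.38%. In litter 116, 1 of 7, Twist2, was at least 2-fold higher, against 4.59%, and 0 were at least 2-fold lower, against 3.12%. In litter 112 none reached 2-fold in either direction, against 2.54% higher and 1.23% lower among kept probes. Twist2 alone was at least 2-fold changed in opposite directions in different litters, which held for 1.83% of kept probes. Ratios of opposite sign, with 2-fold reached in at least 1 litter and a difference among litters by the F test described next, were found for 6 of the 7 member probes and for 9.35% of kept probes. This limma F test of the difference among litters over the 8 arrays, adjusted over all kept probes, passed for 7 of 7 member probes but also for 85.4% of kept probes. That test uses the error between arrays of the same extracts, which is technical, so it says that the pairs of clones differed and not that litters as such do. Its adjusted p was 3.42e-10 for Twist1, 2.98e-08 for Twist2, 5.22e-10 for Snai1 and 0.0263 for Gata6.

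**Figure D3:**
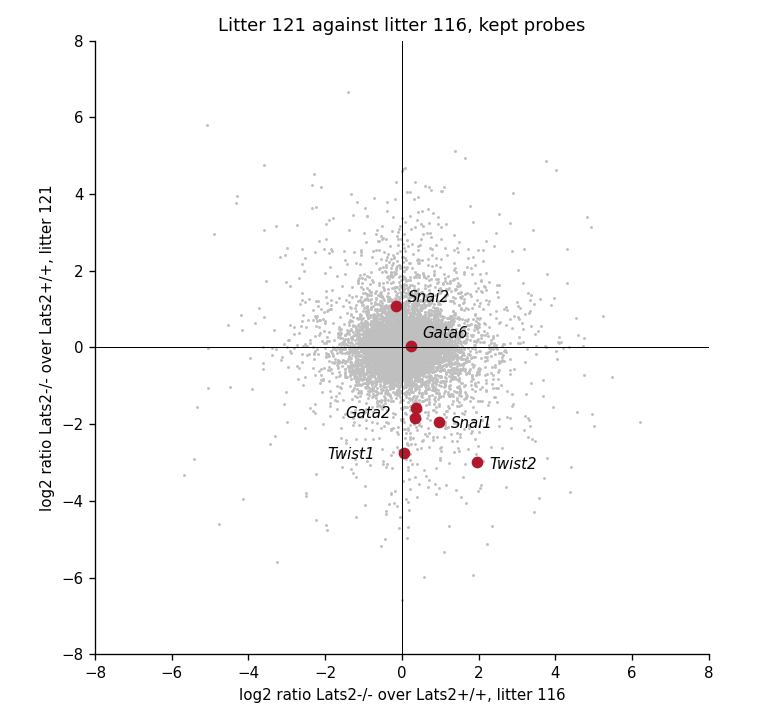
Log2 ratio of Lats2-/- over Lats2+/+ in litter 121 (vertical) against litter 116 (horizontal), for all 22642 kept probes (grey) and the 7 kept member probes (red, both Gata2 probes shown). Twist2 lies in the lower right quadrant at 1.97 and -3.00 (where Lats2-/- was not well above background), and Twist1 near 0 in litter 116 and at -2.74 in litter 121.

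The SD of the 3 litter ratios put sizes to this. Its median was 0.255 over all kept probes and 1.13 over the 7 member probes. Twist2 exceeded 99.5% of kept probes, also with litter 121 set at its bound, Twist1 98.2%, Snai1 97.1%, the brighter Gata2 probe 95.2% and Snai2 86.1%. The kept Gata6 probe was among the steadier probes, above 15.9% of them. The last Gata6 probe, left out by the filter, had an SD of 0.84. These ranks are a description, since a spread over 3 litters has no further replicate.

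**Figure D4:**
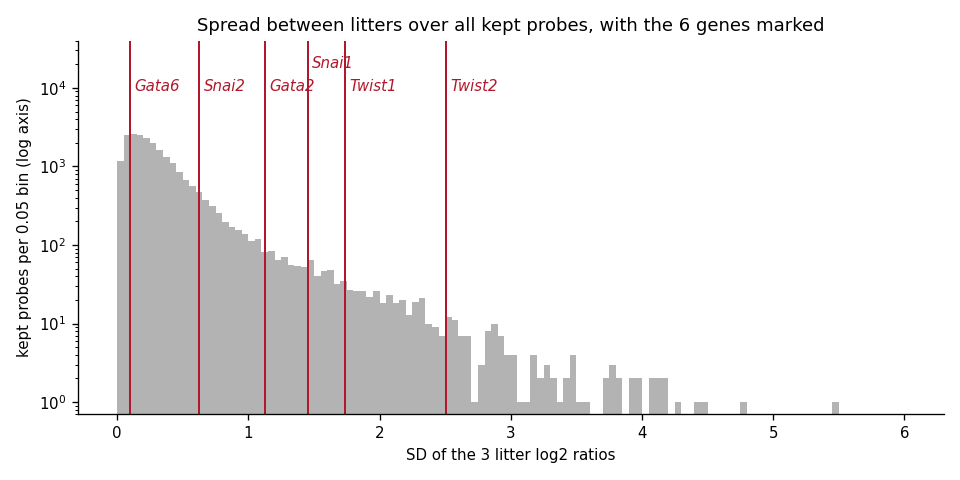
Histogram of the SD of the 3 litter log2 ratios over 22642 kept probes (counts on a log axis), with red lines at the 6 detected genes, 1 probe each. The kept Gata6 probe lies within the bulk at 0.10, and Twist1 and Twist2 lie in the upper tail at 1.74 and 2.51.

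Fibroblast markers were also lower in Lats2-/- than in Lats2+/+ of litter 121, as Twist1, Twist2, Snai1 and Gata2 were, whereas Snai2 and Gata6 were not. Of 9 markers, all kept, 6 were at least 2-fold lower in Lats2-/- there, with a median log2 ratio of -3.42. They include Ddr2, a collagen receptor, at -4.27 and Col3a1, a fibrillar collagen, at -3.42. By level, Ddr2 was lowest in Lats2-/- of litter 121, at 9.27 against 11.78 to 13.53 elsewhere, and Thy1 and S100a4 were likewise lowest there. Col3a1 was not, at 11.20 within the 10.34 to 14.62 of the others, with Lats2+/+ of litter 121 the highest. Col1a1 also lay within the others, at 15.51 against 13.98 to 16.73. Pdgfra, a mesenchymal growth factor receptor, was well above background on 2 of 4 arrays for Lats2-/- of litter 121 and on all 4 for Lats2+/+, so its ratio of -4.96 rests on a poorly measured Lats2-/- signal. Vim, the mesenchymal intermediate filament, was at -0.07. In litter 116, 4 of the 9 were at least 2-fold higher and 1 lower, with a median of 0.87, and in litter 112 none reached 2-fold. The summed signal of the 9 markers was 230676 in the Lats2-/- extract of litter 121, 380493 and 548570 in the other Lats2-/- extracts, and 374852 to 609393 in the Lats2+/+ extracts. S100a4, a bright marker that weighs heavily in these sums, was at 14.12 in Lats2-/- of litter 121 against 16.77 to 17.74 elsewhere. Col1a2, also bright, was at 16.50 there, within the 15.59 to 17.43 of the other extracts. The low sum therefore does not show a loss shared by all 9 markers. Apart from Pdgfra in Lats2-/- of litter 121, the markers were detected in every extract.

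Markers of other cell types were mostly near background in the same extracts. Of the 4 heart muscle markers only Tnnt2 was kept, at a log2 signal of 11.08 in Lats2-/- of litter 121 and 6.16 to 7.76 elsewhere. The summed signal of that list was 2394 there, 316 and 340 in the other Lats2-/- extracts and 310 to 473 in the Lats2+/+ extracts, with Myh6 and Myl7 detected in no extract. Nppa was detected in both extracts of litter 121 alone and had a log2 ratio of -0.40 there. Of the neural markers, the progenitor filament gene Nes was at 12.52 in Lats2-/- of litter 121 against 7.50 to 8.42 elsewhere, and the summed signal was 6958 against 785 to 1349. The neuronal tubulin gene Tubb3 was at 9.89 in that extract, within the 8.84 to 9.92 of the others, Sox10 had a ratio of -0.09 in that litter, and Sox2 was detected in no extract. Msln, a mesothelial gene, was at 14.03 in the Lats2-/- extract of litter 116, with a log2 ratio of 2.03 over its littermate, and at 6.93 to 9.50 in the other litters, with Wt1 and Upk3b undetected throughout. Upk1b, on the same mesothelial list, was well above background in Lats2-/- of litter 121 alone, on 4 of 4 arrays, at 6.60 against 5.98 to 6.10 elsewhere. The summed mesothelial signal was 623, 17001 and 1021 in the Lats2-/- extracts and 393, 4356 and 446 in the Lats2+/+ extracts of litters 112, 116 and 121. The epithelial list summed to 430 to 850 in Lats2-/- and 423 to 467 in Lats2+/+ extracts, with Epcam and Cldn7 undetected. Endothelial signals summed to 342 to 396 in Lats2-/- and 342 to 355 in Lats2+/+ extracts. Blood and macrophage (510 to 578 and 533 to 562) and skeletal muscle signals (201 to 204 and 202 to 204) likewise spanned little. Pecam1, Ptprc and Myod1 were undetected. The endothelial receptor gene Kdr was well above background in Lats2-/- of litter 121 alone, on 4 of 4 arrays, at 6.61 against 6.02 to 6.11 elsewhere. The part of these markers in the Twist1, Twist2, Snai1 and Gata2 values was not tested.

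The ZEB genes belong to the same circuit as Snail genes in EMT and were both detected in all 6 extracts. Zeb1 had log2 signals of 10.15, 11.88 and 10.46 in the Lats2-/- extracts and 10.11, 10.68 and 11.04 in the Lats2+/+ extracts of litters 112, 116 and 121. Like Twist2 it was highest in Lats2-/- of litter 116, with ratios of 0.04, 1.21 and -0.58 and an average of 0.22 ± 0.91 (SD over 3 litters; adjusted p of 0.924 in limma). Zeb2, by the brightest of its 5 probes, had signals of 10.56, 10.01 and 11.20 in Lats2-/- and 10.66, 10.18 and 9.97 in Lats2+/+ extracts. It was highest in Lats2-/- of litter 121, where Twist1, Twist2 and Snai1 were lowest, with ratios of -0.10, -0.17 and 1.23 and an average of 0.32 ± 0.79 (SD over 3 litters; adjusted p of 0.856 in limma). Of the other 6 Snail, Scratch and GATA genes listed, Scrt2 and Gata3 were kept and neither passed at an unadjusted p of 0.05.

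Among 14 further tissue-specific bHLH genes, mostly of mesoderm, 13 were detected in no extract. The exception was Scx (scleraxis), the tendon bHLH factor. Its log2 signals were 7.42, 9.12 and 12.32 in the Lats2-/- extracts and 8.45, 14.02 and 9.37 in the Lats2+/+ extracts of litters 112, 116 and 121. Its ratios of -1.03, -4.90 and 2.95 thus ran opposite to those of Twist2 in litters 116 and 121, with an average of -0.99 ± 3.92 (SD over 3 litters; adjusted p of 0.917 in limma). The partners of the bHLH factors were detected throughout: all 7 E protein and ID genes passed the filter, and none passed at an unadjusted p of 0.05. Their median ratio was -0.31, and the E protein genes Tcf3, Tcf4 and Tcf12 had mean ratios of -0.10, -0.31 and -0.50.

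Cofactors of GATA and Snail factors were mostly expressed, with 19 of 21 kept and a median ratio of 0.10. At an unadjusted p under 0.05, 1 of the 19 was higher and 0 lower, no more than the 6.84% of all kept probes. It was Srf, the serum response factor that works with GATA factors on muscle genes, with ratios of 0.44, 0.73 and 0.19 (limma p of 0.0382, adjusted p of 0.711).

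Of 19 genes that these factors drive or repress in EMT, 8 were kept, all but 2 of them detected in every extract, and 8 of the others, chiefly epithelial junction and regulator genes, were detected in no extract. Cdh1 was detected in 1 extract, Lats2-/- of litter 121, at a log2 signal of 7.16 against 6.01 to 6.26 elsewhere. The keratin genes Krt8 and Krt18 were each detected in Lats2+/+ of litter 116 alone, where Lats2-/- was at least 1.23-fold and at least 1.24-fold lower. At an unadjusted p under 0.05, 3 of the 8 were higher and 0 lower in Lats2-/-, beside 6.84% of all kept probes in either direction, and the list median was 0.69. They were Cdh2 (N-cadherin) at 0.37, 0.70 and 1.76 (limma p of 0.0428), Postn (periostin) at 0.80, 2.55 and 0.67 (limma p of 0.0425) and Krt19, a keratin of simple epithelia, at 2.42, 0.37 and 1.83 (limma p of 0.0284). All 3 had positive ratios in 3 of 3 litters and an adjusted p of 0.711 in limma, but Krt19 was well above background on no array for Lats2+/+ of litter 116 and on 1 of 2 for Lats2+/+ of litter 112, where its ratio was largest.

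Of 15 heart, visceral and mesothelial genes listed for their links to GATA and HAND factors, 8 were kept and their median ratio was 0.58. At an unadjusted p under 0.05, 1 was higher and 1 lower, beside 6.84% of all kept probes. Nppb, the B-type natriuretic peptide gene, was the lower one, with ratios of -0.49, -1.29 and -1.14 (limma p of 0.00956, adjusted p of 0.711). Msln, a surface protein of mesothelium, was the higher one, with ratios of 1.52, 2.03 and 1.91 and an average of 1.82 ± 0.26 (SD over 3 litters; limma p of 0.000299, adjusted p of 0.634).

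**Figure D5:**
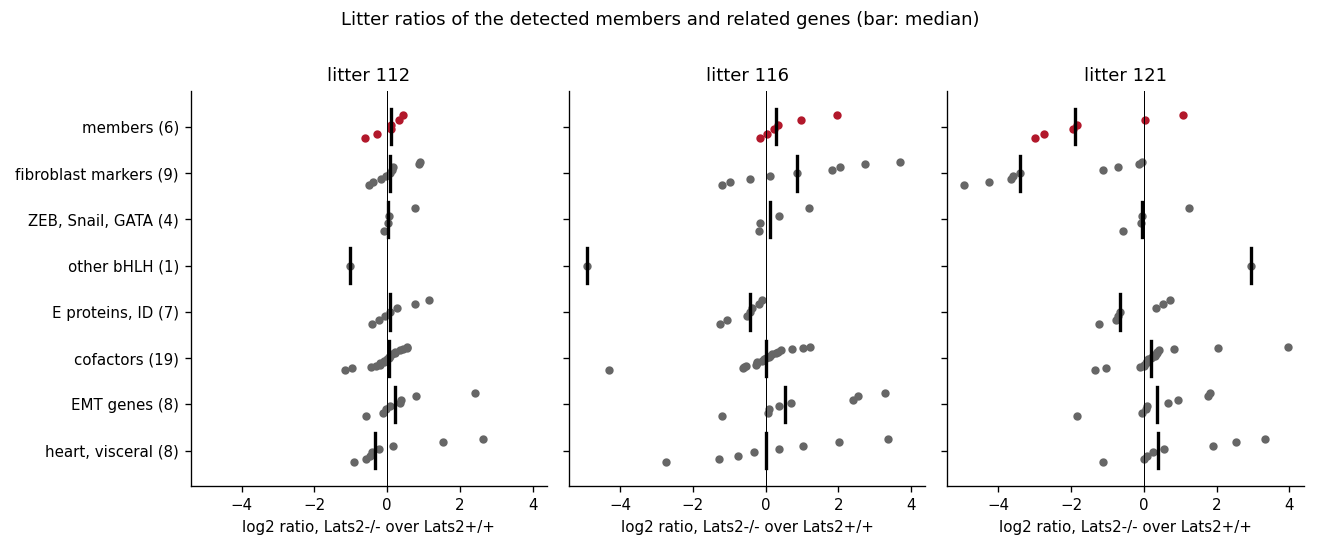
Log2 ratio of Lats2-/- over Lats2+/+ (horizontal) in litters 112, 116 and 121 for the 6 detected members (red) and the kept genes of the related lists (grey), with the number of genes in parentheses and a black bar at the median. Fibroblast markers have a median of 0.08 in litter 112, 0.87 in litter 116 and -3.42 in litter 121.

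The genes whose levels over the 6 extracts were most like those of Twist1, Twist2, Snai1 and Gata2 were looked up among 14791 gene names, by Pearson's r over n = 6 extracts that share arrays in pairs. Twist1 was most like Smoc2, a matricellular protein gene (r = 0.99), whose ratios were 0.66, 0.20 and -2.94, and Serpinf1 (r = 0.99), at 0.43, 0.58 and -6.00. Snai1 was closest to Sh3pxd2a and Ankrd23 (both r = 0.97), Gata2 to Il24 and Ppfia1 (both r = 0.95) and Twist2 to Fance (r = 0.99) and Metrn (r = 0.98). The genes closest to Twist2 and Snai1 varied over far smaller ranges, with no litter ratio beyond 0.52 in either direction. Those closest to Gata2 also varied less than it did, with ratios of 0.04, -0.08 and -0.83 for Il24 and -0.05, -0.05 and -0.26 for Ppfia1. With so many names and 6 points, values this high are a description only.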

How the data were processed

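The authors hybridised whole mouse genome Agilent arrays in a dye-swap setup and read the scans with Agilent's extraction software (10.7.3.1 in the headers of the files, 10.5.1.1 in the submitters' processing notes). The deposited scanner files hold mean and background intensity per spot, processed intensity, the log10 ratio of red over green, and detection flags. The deposited value table holds log10 ratios, which matched the scanner ratios turned to Lats2-/- over Lats2+/+ within 0.005.

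Mean intensities were background corrected (normexp, offset 50) and loess normalized in limma 3.58.1 under R 4.3.3. Outlier spots (860) were dropped, and 0 gene spots were saturated. Log2 ratios were averaged over repeat spots, then over the arrays of a litter, which share their 2 extracts, so n is 3 litters. Pairing is within the array, by litter. Signals per extract were taken after Aquantile scaling between arrays. They were compared within a probe, or summed over the probes of a marker list, where bright probes weigh most. Probes kept were well above background, on most arrays, in at least 2 of 3 extracts of a genotype. limma's moderated test against 0 was two-sided, with Benjamini-Hochberg adjustment over 22642 kept probes. The F test among litters had a dye term. A gene with several probes was represented by the brightest, and others are given where they differ in sign or by over 1 (log2). Related genes are named where the unadjusted p is under 0.05, with Zeb1, Zeb2 and Lats2, and a few others chosen after their values were seen. Likeness passed over names that are only an accession or clone. Likeness to Snai2 is not reported here. The members and lists were chosen with earlier results of these data known. The fits were tested on simulated data. The number of arrays limits the precision. Probe positions are those of the files (mm8), without strand or exon annotation of that build. Alternatives were another offset, the processed signals, the value table, other filters, litter or slide as a random block, a dye term, no pairing, the methods' t-test, each litter left out, and other scalings of the levels.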

Additional observations from a re-analysis of the deposited data

Results flagged for a closer look

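In 5 of the 6 detected genes the litters had ratios of opposite sign, at least 1 litter reached 2-fold, and the limma F test of the difference among litters passed after adjustment. The same held for 9.35% of all kept probes. The largest difference between litter log2 ratios was 3.19 for Twist1 (adjusted p of 3.42e-10 in limma), 4.97 for Twist2 (2.98e-08; at least 4.95 with litter 121 at its bound, since Lats2-/- was not well above background there), 2.91 for Snai1 (5.22e-10), 1.25 for Snai2 (2.07e-07) and 2.19 for Gata2 (9.16e-09). The F test passed for 85.4% of all kept probes and rests on arrays of the same extracts, so these p-values hold technical error only. Litter 121, which alone lay on its slide, set the sign of the mean for 4 of these 5 genes, Snai2 being the exception.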

How the results depend on the processing

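Without litter 121, 4 of the 6 mean log2 ratios turned from lower to higher in Lats2-/-. Leaving out each litter in turn, the mean ranged from -1.35 to 0.25 for Twist1, from -1.45 to 1.04 for Twist2, from -1.27 to 0.18 for Snai1, from -1.06 to 0.0333 for Gata2, from 0.09 to 0.71 for Snai2 and from 0.07 to 0.17 for Gata6. With slide as a random block over arrays, which counts repeat arrays of 1 extract pair as observations of their own, 4 of 7 member probes had an unadjusted p under 0.05 (17.8% of kept probes), of Twist1, Snai2 and Gata2, and 1, Twist1, was also at least 2-fold changed (1.95%). That fit moved the means to -1.25 for Twist1, -0.98 for Twist2, -0.88 for Snai1 and -0.91 for Gata2. Under every other alternative run, both counts stayed at 0, and the count past the adjusted threshold was 0 under all of them. The fit without the pairing (no replicate block) left the means as they were, at -0.75 for Twist1 and -0.31 for Twist2, and called 0 member probes. The background step also moved Twist2, which was dim in 1 extract: its mean was -0.59 with an offset of 16. With processed signals, which also lack the loess step used here, the Twist2 mean was -1.57. The strict filter dropped Twist2. The extract farthest from the median was the same under all 3 scalings (the other 2 chosen after seeing the data) for 8 of 9 probes, Gata6 being the exception with gaps of 0.03 to 0.36. The count of member probes that differed between litters was 6 without a dye term and 7 otherwise, or 6 of 6 under the strict filter. The causes of these shifts were not tested.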
